A study of Mus musculus with 4 samples.

Results

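The genes described here were Id1, Id2 and Id3, which encode inhibitor of DNA binding proteins, and Tcf3, Tcf4 and Tcf12, which encode the E proteins E2A, E2-2 and HEB. They were chosen by name, and all 6 were found among the 31053 genes of the count tables. E proteins are basic helix-loop-helix transcription factors that bind E-box DNA as dimers and drive many steps of thymocyte development. Id proteins share the dimerization domain but lack the DNA-binding region, so that an E protein paired with an Id protein leaves the DNA. In thymocytes Id3 is induced by signals from the T cell receptor (TCR) through the Egr factors, and Id2 is known for its high level in innate-like and effector T cells.

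The study profiled single thymic invariant natural killer T (iNKT) cells, which recognize lipid antigens on CD1d, from 2 C57BL/6 mice and 2 Hivep3-/- mice with 1 library per mouse. Hivep3 encodes a large zinc finger protein also known as Schnurri-3, and per the study's methods the Hivep3-/- mice had been backcrossed to C57BL/6. All mice were 8 to 9 weeks old and untreated. Thymocytes of both genotypes were enriched with PBS57-CD1d tetramer and sorted as an equal mix of CD44low and CD44high tetramer+ cells, so the share of each stage in a library was set in part by the sort.

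A total of 19647 cells passed the filters, with 3651 to 7231 per library and a median of 4596 to 6833 unique molecular identifiers (UMIs, the count of distinct transcripts captured) per cell. Between 26 and 58 cell barcodes were shared by any pair of libraries. The libraries were not matched for sex. C57BL/6 replicate 1 held 14609 Xist UMIs and 0 UMIs of 4 Y-linked genes, whereas the other 3 libraries held 3 to 25 Xist UMIs and expressed all 4 Y-linked genes. The targeted gene did not separate the genotypes as a loss: Hivep3 stood at 38.5 and 36.4 CPM (UMIs of a gene per 1000000 UMIs of all genes) in the C57BL/6 libraries and at 101 and 68.0 CPM in the Hivep3-/- libraries. The sources used here do not give the deleted part of the gene, so 5′ tags may lie outside it and this level checks nothing about the labels. The names C57BL/6 and Hivep3-/- below therefore stand for the libraries labelled so.

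Cells were grouped into classes by clustering without the 6 genes, and classes were named from marker lists that do not contain them. Stage 0-like cells (1273 cells) were clusters 8 (723 cells) and 10 (550 cells), named from markers of the earliest iNKT precursors. Itm2a and Myb were among the leading genes of both clusters. Lef1 was among those of cluster 8, and Cldn10, Egr2 and Cd24a were among those of cluster 10. Cd24a was lower in cluster 8 than in cluster 10, as given below. Cluster 10 was also led by Cd8a and Cd8b1, which mark double positive thymocytes. In C57BL/6 libraries the summed stage 0 markers stood at 5199 to 5624 CPM in cluster 8 and 8846 to 9983 CPM in cluster 10. The summed iNKT2 markers stood at 1373 to 1541 CPM in cluster 8 and 592 CPM in cluster 10. Both sums had the same direction in Hivep3-/- libraries, so cluster 8 was the less clearly stage 0 part of the class. The other classes were cycling-like (2104 cells), iNKT2-like (3001 cells), iNKT17-like (613 cells) and iNKT1-like cells (9833 cells), and 2823 cells stayed unnamed. In 1 iNKT1-like cluster interferon response genes such as Ifit3 and Isg15 were the leading genes. The defining markers separated the ends of the series: Cd24a stood at 72.9 and 68.9 CPM (C57BL/6) and 95.5 and 126 CPM (Hivep3-/-) in stage 0-like cells, against 0.104 to 0.908 CPM in iNKT1-like cells.

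Id2 lies on chromosome 12 (chr12:25093799-25097140, minus strand, GRCm38), Id3 on chromosome 4 (chr4:136143497-136145755, plus strand) and Id1 on chromosome 2 (chr2:152736251-152737410, plus strand). Tcf3 lies on chromosome 10 (chr10:80409514-80433647, minus strand) and Tcf12 on chromosome 9 (chr9:71842688-72111871, minus strand). No gene of the count tables overlapped any of the 6. Because E proteins act through the E-box (CANNTG, which reads as an E-box on both strands), the upstream sequence of 1 Id gene and 1 E protein gene, Id2 and Tcf3, is shown with its E-boxes in capitals. The sequences are from RefSeq on GRCm38.p6, read 5′ to 3′ on the strand of the gene. The Id2 stretch (chr12:25096254-25096342, minus strand) runs from 250 to 162 bases before the RefSeq start and lies in an intron of a longer annotated Id2 transcript. The Tcf3 stretch (chr10:80433648-80433885, minus strand) runs from 250 to 13 bases before the start, upstream of every annotated Tcf3 exon.
Id2: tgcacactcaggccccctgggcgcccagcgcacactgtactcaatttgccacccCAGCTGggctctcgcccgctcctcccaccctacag
Tcf3: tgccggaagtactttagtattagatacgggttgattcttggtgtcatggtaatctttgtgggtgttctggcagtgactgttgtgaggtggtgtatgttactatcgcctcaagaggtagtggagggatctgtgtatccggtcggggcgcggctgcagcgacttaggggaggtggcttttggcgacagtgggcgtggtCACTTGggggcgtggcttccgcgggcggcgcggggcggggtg

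In the 250 bases before the start, Id2 held 1 E-box (CAGCTG, 196 bases before the start), Tcf3 held 1 (CACTTG, 54 bases before the start) and Id3 held 0. Tcf12 has 3 entries, of which 2 held 1 E-box each (CAAGTG and CAGCTG, 149 and 240 bases before their starts). An E-box is common at this length: 66.2% of 32851 mouse windows of 250 bases held at least 1. The motif GCGNGGGCG, bound by Egr factors, was searched on both strands and was in none of these windows; it was in 4.70% of all windows. Id1 and Tcf4 have no entry. These matches describe letters only, and no binding was measured in these libraries.

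Id3, the Id protein induced by TCR signals, was highest in stage 0-like cells, and its level followed the same order of classes in each of the 4 libraries. Stage 0-like cells held 742 and 603 CPM of Id3 in the C57BL/6 libraries and 1398 and 766 CPM in the Hivep3-/- libraries. Cycling-like cells held 497 and 431 CPM (C57BL/6) and 1269.9 and 759 CPM (Hivep3-/-), and iNKT2-like cells held 364 and 311 CPM and 759 and 429 CPM. The level in iNKT17-like cells was 228, 129.8, 267 and 138 CPM in the same order of libraries. In iNKT1-like cells Id3 was at 31.5 and 17.6 CPM (C57BL/6) and 60.9 and 34.0 CPM (Hivep3-/-). The level in stage 0-like cells was 22.5 to 34.3 times that in iNKT1-like cells of the same library. Neighbouring classes in this order did not overlap over the libraries of a genotype, except stage 0-like and cycling-like cells of Hivep3-/- mice. Differences between classes are given without a test, since the classes come from clustering the same cells.

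Id2 ran the other way. In the C57BL/6 libraries its level was 162 and 198 CPM in stage 0-like cells, 683 and 739.9 CPM in cycling-like cells and 835 and 801 CPM in iNKT2-like cells. It reached 1291 and 1080.3 CPM in iNKT17-like cells and 1387 and 1545 CPM in iNKT1-like cells, which was 8.55 and 7.82 times the stage 0-like level. The Hivep3-/- libraries started lower and spanned a wider range, with 38.6 and 23.8 CPM in stage 0-like, 463 and 308 CPM in cycling-like and 705 and 661 CPM in iNKT2-like cells. Their iNKT17-like cells held 1157 and 1253 CPM and their iNKT1-like cells 1098 and 1034 CPM of Id2. The highest class was therefore iNKT1-like in both C57BL/6 libraries and iNKT17-like in both Hivep3-/- libraries, and the ratio of the highest to the lowest class was 29.95 and 52.7 in the Hivep3-/- libraries. No neighbouring classes in either genotype's order overlapped over its libraries.

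**Figure D1:**
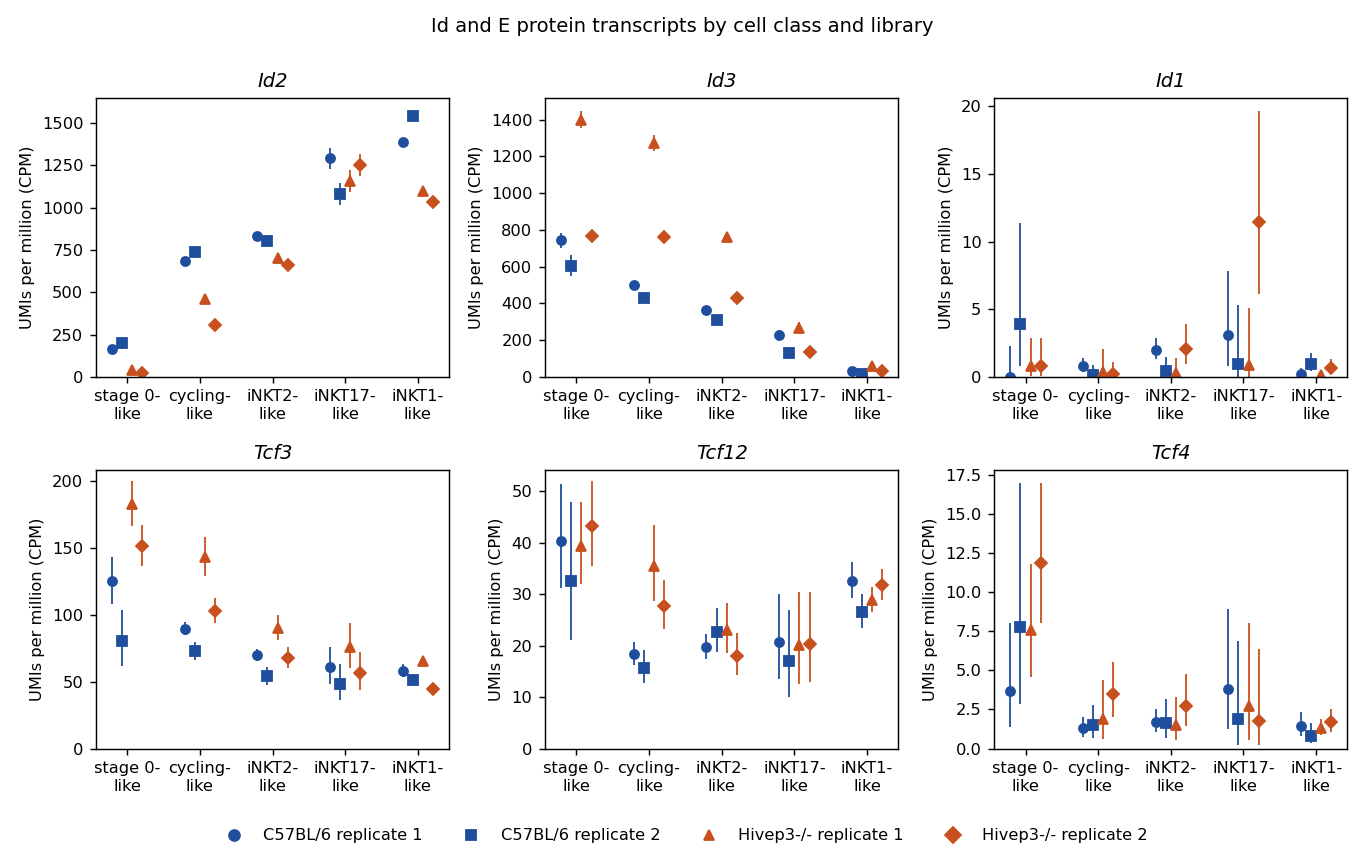
Level of each of the 6 genes (CPM, linear axis from 0) in 5 cell classes, 1 marker per library, with bars for the 95% Poisson interval of the count, which covers counting error only. Id3 was highest and Id2 lowest in stage 0-like cells of every library, Tcf3 was highest in stage 0-like cells, and Id1 and Tcf4 were near 0.

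Id1, the third Id protein of this set, was hardly detected. The whole libraries held 46 and 16 (C57BL/6) and 9 and 36 (Hivep3-/-) Id1 UMIs. In stage 0-like cells Id1 had 0, 3, 2 and 2 UMIs, and 0 UMIs in C57BL/6 replicate 1 allows up to 1.84 CPM (3 counts, counting error only). The highest level, 11.5 CPM from 13 UMIs, was in the iNKT17-like cells of Hivep3-/- replicate 2, whereas the other 3 libraries stood at 0.913 to 3.06 CPM there. Id1 passed the filter on low counts over all cells but in no class, so it was not tested by class.

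Among the E proteins, Tcf3 followed Id3 in its order, over a smaller range. Its level in stage 0-like cells was 125 and 80.6 CPM (C57BL/6) and 183 and 151 CPM (Hivep3-/-). Cycling-like cells held 89.6, 72.7, 143 and 103 CPM and iNKT2-like cells 69.6, 54.1, 90.2 and 67.8 CPM in the same library order. In iNKT17-like cells the level was 48.3 to 75.8 CPM and in iNKT1-like cells 44.6 to 65.8 CPM, and these 2 classes overlapped in both genotypes. All 4 libraries had the order stage 0-like, cycling-like, iNKT2-like, and the ratio of the highest to the lowest class was 1.67 to 3.39. In C57BL/6 mice the stage 0-like and cycling-like levels overlapped.

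Tcf12, which encodes HEB, had another pattern. It was highest in stage 0-like cells in every library, at 40.4 and 32.5 CPM (C57BL/6) and 39.4 and 43.2 CPM (Hivep3-/-), and came back to 26.6 to 32.6 CPM in iNKT1-like cells. Between these it stood at 15.7 to 18.4 CPM in C57BL/6 and 27.7 to 35.6 CPM in Hivep3-/- cycling-like cells, at 18.0 to 23.1 CPM in iNKT2-like cells and at 17.1 to 20.7 CPM in iNKT17-like cells. The stage 0-like and iNKT1-like levels of C57BL/6 mice overlapped. Tcf4 (chr18:69343356-69689079, plus strand), which encodes E2-2, had 6, 6, 19 and 30 UMIs in stage 0-like cells (3.68, 7.80, 7.56 and 11.9 CPM) and 0.831 to 3.83 CPM in the other classes. E2-2 is the defining factor of plasmacytoid dendritic cells, so Tcf4 was also counted in the cells with 2 or more markers of B cells or plasmacytoid dendritic cells. These cells held 0 of 82, 2 of 41, 5 of 68 and 5 of 106 of the Tcf4 UMIs of the libraries.

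Over the 20 points made by 5 classes in 4 libraries, the log2 levels of Id2 and Id3 had a Pearson correlation of -0.65. Tcf3 correlated with Id3 at 0.80 and with Id2 at -0.84, and Tcf12 with Id3 at 0.13 and with Id2 at -0.66. Tcf4 correlated with Id3 at 0.56 and with Id2 at -0.86. These Tcf4 values rest on low counts, as Tcf4 stood at 0.831 to 3.83 CPM outside stage 0-like cells. Among 5323 genes whose level averaged 20 CPM or more, those most like Id2 were Cd52 (0.96), Cxcr6 (0.95), Itgae (0.94), Cebpzos (0.94) and S100a6 (0.94), and those most opposed were Sept7 (-0.97), Rab11b (-0.95) and Ankrd46 (-0.93). Cxcr6 encodes a chemokine receptor of iNKT cells and Itgae the integrin CD103. Those most like Id3 were Glb1 (0.96), Dnmt3a (0.95), Vcp (0.94), Plscr3 (0.93) and Chid1 (0.93), and those most opposed were Clta (-0.91), Mbnl1 (-0.91) and AU020206 (-0.90). Dnmt3a encodes a de novo DNA methyltransferase. The 20 points share libraries, depth and clustering, so these values are a description.

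The switch from Id3 to Id2 was measured within each library as the Id3 share of all Id2 and Id3 UMIs, since a 5′ library counts each captured transcript as 1 UMI whatever its length. In C57BL/6 mice the share was 82.1% and 75.3% in stage 0-like cells (95% exact binomial intervals 80.0 to 84.0% and 71.7 to 78.7%, which cover counting error only). It was 42.1% and 36.8% in cycling-like, 30.3% and 28.0% in iNKT2-like, 15.0% and 10.7% in iNKT17-like and 2.22% and 1.12% in iNKT1-like cells. In these class sums the share of both C57BL/6 libraries thus passed 50% between stage 0-like and cycling-like cells. Within the cycling-like class, cluster 12 stood at 52.6% in C57BL/6 replicate 1 and at 45.8% in C57BL/6 replicate 2. In Hivep3-/- mice the share was 97.3% and 97.0% in stage 0-like cells (exact binomial intervals 96.7 to 97.8% and 96.1 to 97.7%), 73.3% and 71.2% in cycling-like cells and 51.8% and 39.4% in iNKT2-like cells. It was 18.8% and 9.9% in their iNKT17-like and 5.26% and 3.19% in their iNKT1-like cells. Cycling-like cells were therefore below 50% in both C57BL/6 libraries and above it in both Hivep3-/- libraries. The order of classes used here ranks them by Id3 level and is not a course in time. The make-up of the cycling-like class also differed between the genotypes, as given below.

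**Figure D2:**
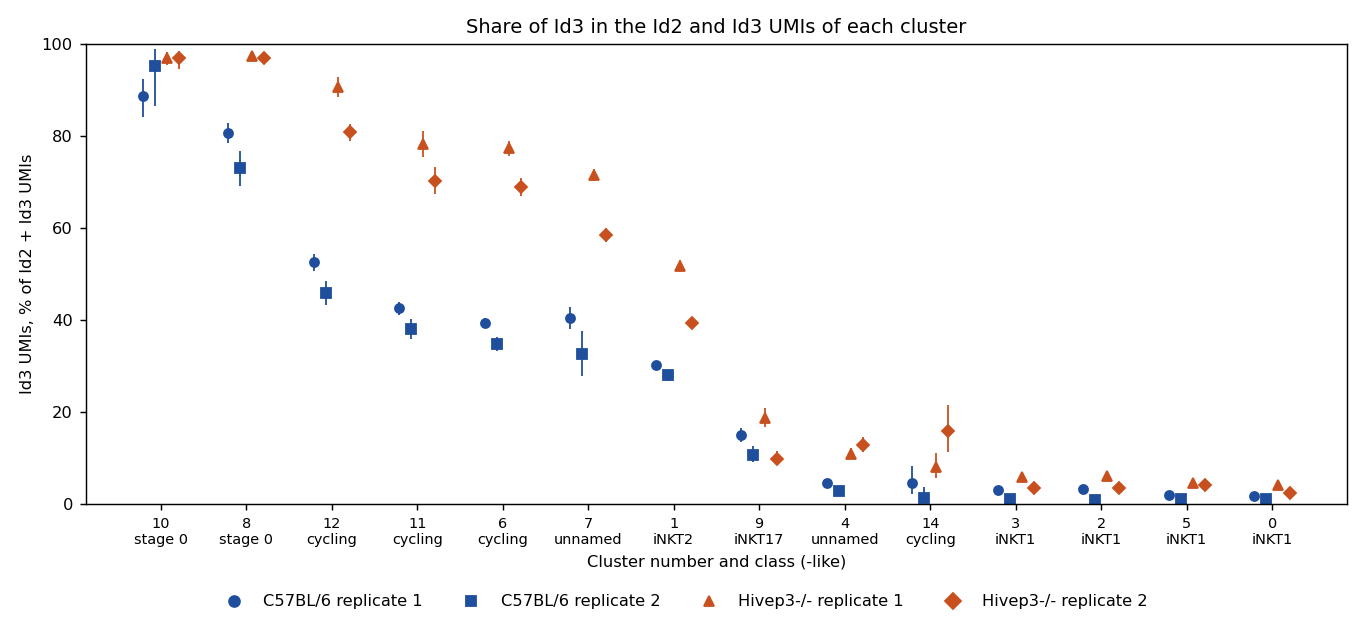
Id3 share of Id2 and Id3 UMIs (%, axis from 0 to 100) in each library by class and by cluster, with bars for the 95% exact binomial interval. Hivep3-/- libraries lie above the C57BL/6 libraries in stage 0-like, cycling-like, iNKT2-like and iNKT1-like cells and overlap them in iNKT17-like cells.

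Between the genotypes the mean share in cycling-like cells was 39.5% ± 3.79 (SD, n = 2) in C57BL/6 and 72.2% ± 1.503 (SD, n = 2) in Hivep3-/- mice, a difference of 32.8 percentage points. On the scale of log2(Id3/Id2) it went from -0.62 to 1.38 in cycling-like and from 1.90 to 5.09 in stage 0-like cells, so the order of these 2 classes depends on the scale. The difference was 18.5 points in stage 0-like cells (78.7% ± 4.76 against 97.1% ± 0.229), 16.4 points in iNKT2-like cells (29.2% ± 1.65 against 45.6% ± 8.83) and 2.55 points in iNKT1-like cells (1.67% ± 0.773 against 4.22% ± 1.46). The libraries of the genotypes did not overlap in these 4 classes. Without Hivep3-/- replicate 1 the difference was 10.2 points in iNKT2-like and 1.52 points in iNKT1-like cells, and without Hivep3-/- replicate 2 it was 22.7 and 3.59 points. Under an alternative definition of stage 0 cells, a gate on at least 2 Cd24a UMIs in a thinned cell that left 10, 8, 26 and 23 cells, the direction turned: the share was 100% and 100% in C57BL/6 (from 14 and 6 UMIs) and 82.7% and 97.7% in Hivep3-/- libraries. In iNKT17-like cells they overlapped, with 12.9% ± 3.02 against 14.3% ± 6.28. With 2 libraries against 2, a two-sided exact permutation test cannot give a p below 0.33, which is the value in the 4 classes without overlap, and it was 1.0 in iNKT17-like cells.

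Most clusters had the same direction, and 2 had libraries that overlapped: cluster 9, which is the iNKT17-like class, and the unnamed cluster 13, at 16.3% and 66.7% in C57BL/6 and 46.7% and 33.3% in Hivep3-/- libraries, where both replicates 2 held 3 UMIs each. In the cycling-like class the share went from 37.1% to 73.1% in cluster 6 (led by the replication genes Mcm3 and Mcm5), from 40.3% to 74.3% in cluster 11 (led by the mitotic genes Ccnb2 and Birc5) and from 49.2% to 85.8% in cluster 12 (led by Top2a and histone genes), as means of C57BL/6 and of Hivep3-/- libraries. In the small cluster 14, whose cells held iNKT1 markers, it went from 2.92% to 12.0%. The unnamed cluster 7 had 36.5% against 65.0% and the unnamed cluster 4 had 3.74% against 11.9%. The libraries did not overlap in any of these 6 clusters. Of the stage 0-like clusters, cluster 8 went from 76.9% to 97.2%, a difference of 20.2 points. Cluster 10 went from 92.0% to 97.1%, a difference of 5.10 points. Libraries did not overlap in either, but C57BL/6 replicate 2 had 95.2% in cluster 10 from 62 UMIs (exact binomial interval 86.5 to 99.0%). Whether the difference itself differed between these clusters was not tested.

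Counts of cells gave the distribution behind these sums. Every cell was thinned to 2000 UMIs, which left out 502, 91, 82 and 75 shallower cells of the C57BL/6 and Hivep3-/- libraries. In stage 0-like cells an Id3 UMI was found in 62.0% and 56.9% (C57BL/6) and 82.5% and 66.4% (Hivep3-/-) of cells, and an Id2 UMI in 14.7% and 11.9% against 6.30% and 2.96%. Without thinning the mean shares with an Id2 UMI were 22.6% and 11.7%. In cycling-like cells Id2 was found in 67.0% and 67.4% against 49.8% and 40.1% of cells and Id3 in 48.0% and 45.4% against 69.9% and 70.2%. The sort held no cell type known to lack these genes, so the share that free RNA alone would give was not measured. Median depths before thinning were 4397 to 5925 UMIs in the stage 0-like and 12580 to 16006 UMIs in the cycling-like cells counted.

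Cells with UMIs of both genes were frequent in the middle classes. They made up 32.2% and 29.5% (C57BL/6) and 30.1% and 27.9% (Hivep3-/-) of cycling-like cells, so that the genotypes overlapped. In iNKT2-like cells they made up 29.5% and 28.0% against 44.2% and 34.1%, close to the product of the Id2 and Id3 shares in the same cells (29.3%, 28.5%, 42.8% and 32.8%). Cells with Id3 and no Id2 UMI made up a mean of 15.8% ± 0.122 of C57BL/6 and 41.0% ± 1.86 of Hivep3-/- cycling-like cells (SD, n = 2 each), without overlap and with an exact permutation p of 0.33. In iNKT1-like cells an Id2 UMI was found in 91.4% and 92.4% against 82.1% and 80.9% of cells, and an Id3 UMI in 5.52%, 3.07%, 9.92% and 5.93%. Without thinning the genotypes overlapped for Id2 in iNKT1-like cells, with 96.0% and 98.04% against 96.9% and 96.1%, at a median depth of 3423.5 and 4619.5 UMIs against 6476.5 and 5762 UMIs.

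**Figure D3:**
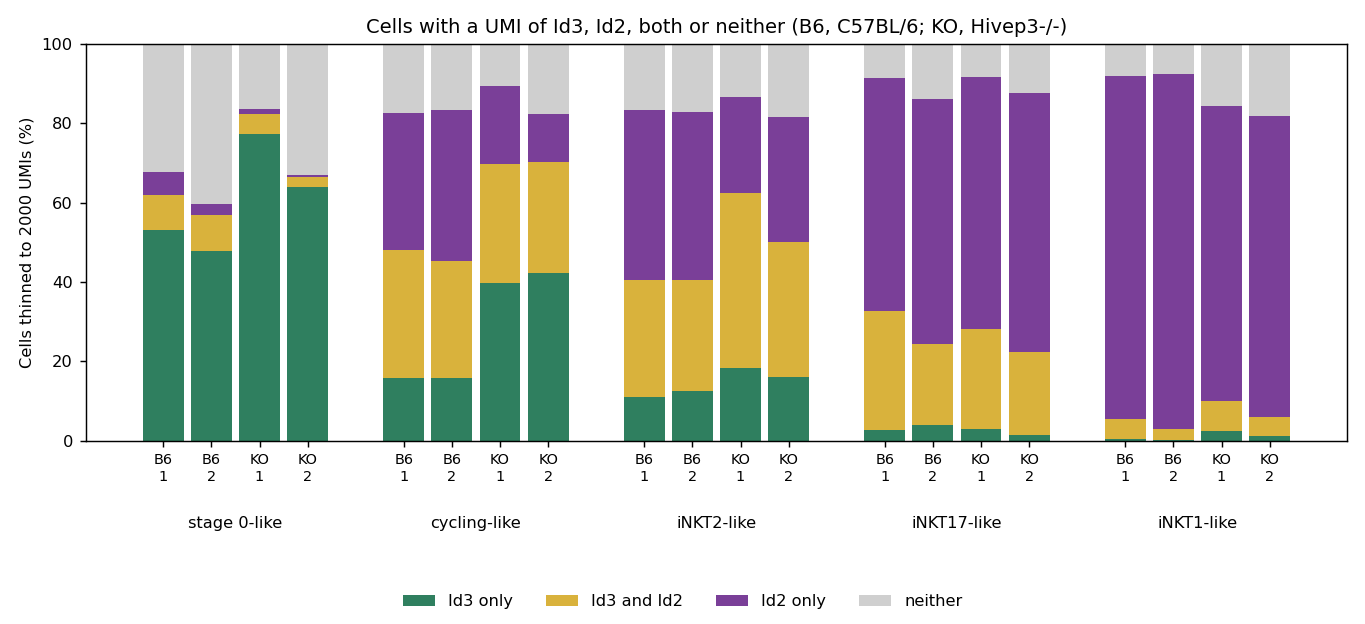
Share of cells (%, stacked to 100) with a UMI of Id3 alone, of both genes, of Id2 alone or of neither, after thinning each cell to 2000 UMIs, by class and library. Cells with Id3 and no Id2 made up 15.7% and 15.9% of C57BL/6 and 39.7% and 42.3% of Hivep3-/- cycling-like cells.

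The question of which of the 6 genes differed between C57BL/6 and Hivep3-/- mice was tested on counts summed per library and class with edgeR's quasi-likelihood test, adjusted by Benjamini-Hochberg over all genes tested in a class and called at an adjusted p under 0.05. Id2 was the only member called in a class, in 2 of the 5 classes. In stage 0-like cells Id2 fell by 2.65 on the log2 scale (SE 0.23, edgeR quasi-likelihood adjusted p = 0.00119), from 179.9 CPM ± 24.9 to 31.2 CPM ± 10.49 (SD, n = 2 each). This was 1 of the 5 members tested there, against 0.315% of all genes called in either direction, and 3 members had an unadjusted p under 0.05, against 8.63% of all genes. In cycling-like cells Id2 fell by 1.06 (SE 0.18, edgeR quasi-likelihood adjusted p = 0.023), from 711 CPM ± 40.3 to 385 CPM ± 110 (SD, n = 2 each), where 1 of 5 members and 3.6% of all genes were called, and 3 members and 18.5% of all genes had an unadjusted p under 0.05. The cycling-like call was lost at clustering resolution 1.2 (-0.92), without the correction of library effects (-0.60) and when members entered the clustering (-0.96). In the Cd24a-gated cells Id2 ran against the stage 0-like result, with 0 and 0 UMIs in C57BL/6 (which allows up to 54.9 and 119 CPM) and 18 and 1 UMIs (158 and 11.9 CPM) in Hivep3-/- libraries, and it could not be fitted.

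In the other classes the log2 differences of Id2 were -0.35 (iNKT2-like, adjusted p = 0.357), -0.05 (iNKT17-like, adjusted p = 0.987) and -0.53 (iNKT1-like, adjusted p = 0.236) in the edgeR quasi-likelihood fits, none of them called. Of the members tested, 0 of 4, 0 of 4 and 0 of 5 were called in these classes, where 0.319%, 0.092% and 0.684% of all genes were. At an unadjusted p under 0.05 the members numbered 2, 0 and 2, against 10.1%, 5.55% and 8.32% of all genes. DESeq2 called 0, 0 and 1 of the members, counts given without their share over all genes. The Id2 levels of the genotypes did not overlap in iNKT2-like and iNKT1-like cells and overlapped in iNKT17-like cells. Over all kept cells of a library Id2 was at 942 and 1138 CPM against 888 and 731 CPM (log2 difference -0.46, edgeR quasi-likelihood adjusted p = 0.295), a sum that also changes with the share of each class. Over all cells 0 of 6 members were called by edgeR's quasi-likelihood test, which called 0.765% of all genes, and 0 by DESeq2. At an unadjusted p under 0.05 in edgeR's test stood 1 member, against 1472 of the 12291 genes tested.

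Id3 had a log2 difference of 0.54 (SE 0.24, adjusted p = 0.563) in stage 0-like, 0.96 (SE 0.21, adjusted p = 0.058) in cycling-like, 0.71 (SE 0.22, adjusted p = 0.349) in iNKT2-like and 0.87 (SE 0.32, adjusted p = 0.477) in iNKT1-like cells in the same edgeR quasi-likelihood fits. None was called, and the libraries did not overlap in these 4 classes. Without Hivep3-/- replicate 1 the difference was 0.10, 0.58, 0.30 and 0.47 in these classes. In iNKT1-like cells it came to 1.36 when C57BL/6 replicate 1 was left out and to 0.51 when C57BL/6 replicate 2 was, and in stage 0-like cells it was 0.86 without Hivep3-/- replicate 2. Without the low-count filter Id3 passed the threshold in all 4, but the share of all genes called in that setting is not given here. Counts of all genes called moved with the setting, from 0 to 232 over the alternatives in stage 0-like cells (28 as reported). In cycling-like cells Id3 passed the threshold under 3 alternatives and when 1 of 2 libraries was left out: without C57BL/6 replicate 1 the difference was 1.05 (edgeR quasi-likelihood adjusted p = 0.0201), and without Hivep3-/- replicate 2 it was 1.24 (adjusted p = 0.0015). In iNKT17-like cells the difference was 0.09 and the libraries overlapped. Hivep3-/- replicate 1 held the highest Id3 level of the 4 libraries in each of the 5 classes.

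Tcf3 was at a log2 difference of 0.53 in stage 0-like (SE 0.20, adjusted p = 0.464) and 0.42 in cycling-like cells (SE 0.18, adjusted p = 0.277), and Tcf12 at 0.02 and 0.71 (SE 0.23 and 0.21, adjusted p = 0.99 and 0.118) in these edgeR fits. Neither was called in any class, by edgeR's quasi-likelihood test or by DESeq2; at an unadjusted p under 0.05 stood Tcf3 in stage 0-like and Tcf12 in cycling-like cells. In stage 0-like cells 3 of the 5 members tested had libraries that did not overlap between the genotypes (Id2, Id3 and Tcf3), against 41.8% of all genes. In cycling-like cells this held for 5 of 5 tested, against 54.1% of all genes. In iNKT2-like cells it held for 2 of 4 (43.7% of all genes), in iNKT17-like cells for 0 of 4 (35.5%) and in iNKT1-like cells for 2 of 5 (37.4%). Over all cells it held for 4 of 6 (47.5%).

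**Figure D4:**
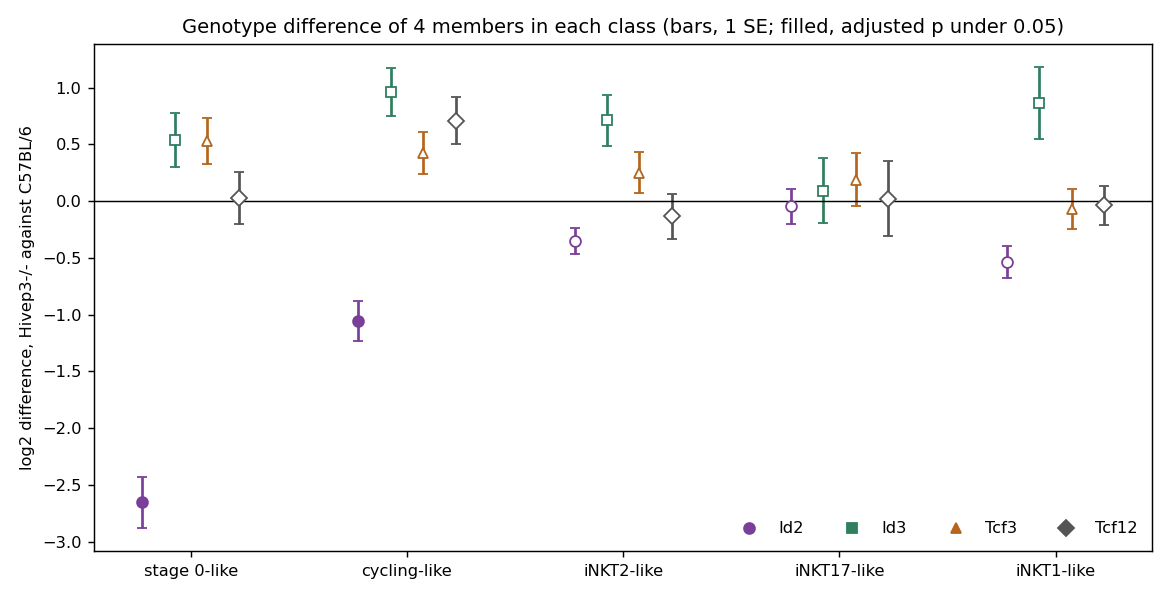
Log2 difference of Hivep3-/- against C57BL/6 (points, edgeR fit; bars, 1 SE) for Id2, Id3, Tcf3 and Tcf12 in 5 classes, with 0 as the line of no difference. Id2 was called in stage 0-like and cycling-like cells, the latter call being lost under 3 alternatives, and the other genes were called in no class.

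Whether the genotype difference itself differed between stage 0-like and iNKT1-like cells was tested with an interaction term, with the library as a block. For Id2 the difference was 2.12 lower on the log2 scale in stage 0-like cells (log2 -2.12, SE 0.15, edgeR quasi-likelihood adjusted p = 3.33e-14). With 2 mice per genotype this p rests largely on a spread pooled over all genes. The Id2 term was -0.29 and not called in stage 0-like cells with no iNKT1 marker UMI, a split described below. For Tcf3 it was 0.61 higher (SE 0.16, edgeR quasi-likelihood adjusted p = 0.017), as Tcf3 was higher in Hivep3-/- than in C57BL/6 stage 0-like cells and overlapped between genotypes in iNKT1-like cells. Both were among the 3.98% of genes called by this term. The Tcf3 call was lost without C57BL/6 replicate 2 (0.45) and without Hivep3-/- replicate 2 (0.49). Id3 was not called (-0.34, SE 0.14, adjusted p = 0.190), and it passed without C57BL/6 replicate 1 (-0.68, adjusted p = 0.0058).

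The Id2 difference in stage 0-like cells rested on few transcripts and on a subset of the cells. The libraries held 265 and 152 (C57BL/6) and 97 and 60 (Hivep3-/-) Id2 UMIs in 360, 120, 379 and 414 stage 0-like cells. Cells with at least 5 Id2 UMIs numbered 17, 13, 3 and 2, and they held 66.4%, 86.2%, 21.6% and 16.7% of these UMIs. All 17 and 13 of the C57BL/6 cells, and 3 of 3 and 1 of 2 of the Hivep3-/- cells, also held a UMI of at least 1 of 17 iNKT1 marker genes. Most stage 0-like Id2 transcripts of C57BL/6 mice thus came from a few cells with a high level.

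Stage 0-like cells were therefore split by these markers, a choice made after seeing the data. In cells with at least 1 iNKT1 marker UMI (204, 60, 225 and 236 cells) Id2 stood at 209, 278, 45.8 and 24.7 CPM. In cells with none (156, 60, 154 and 178 cells) it stood at 41.8 and 16.8 CPM against 19.96 and 21.3 CPM, from 19, 4, 14 and 15 UMIs, and the genotypes overlapped. There the log2 difference was -0.75 (edgeR quasi-likelihood adjusted p = 0.803), and the interaction with iNKT1-like cells was -0.29 (adjusted p = 0.930). The cells without such a UMI were also the shallower ones, with a median of 2442.5 to 3978 UMIs against 4663.5 to 7793, so a difference in these cells was less detectable. Id3 in the cells without such a UMI was at 696, 417, 1215 and 696 CPM. These levels came from 316, 99, 852 and 490 Id3 UMIs, beside the 19, 4, 14 and 15 Id2 UMIs, so Id3 made up most of both in every library.

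By cluster, Id2 in cluster 8 was at 187 and 228 CPM against 41.1 and 24.9 CPM (log2 difference -2.77, edgeR quasi-likelihood adjusted p = 0.0001). Cluster 8 held 517 of the 574 Id2 UMIs of the stage 0-like class, so the class result was largely that of cluster 8. In cluster 10, which held the higher Cd24a level (298 to 387 CPM, against 8.66 to 58.3 CPM in cluster 8), Id2 was at 74.4 and 26.1 CPM against 30.1 and 19.4 CPM, from 27, 3, 17 and 10 UMIs (log2 difference -1.36, edgeR quasi-likelihood adjusted p = 0.986). Whether the difference itself differed between the clusters, or between cells with and without iNKT1 marker UMIs, was not tested. Both genotypes drew a like share of the class from cluster 8, at 57.8% ± 6.7 and 57.7% ± 1.3 (SD, n = 2 each). Cd24a in cluster 8 was itself lower in C57BL/6 (8.66 and 19.9 CPM) than in Hivep3-/- libraries (33.9 and 58.3 CPM).

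**Figure D5:**
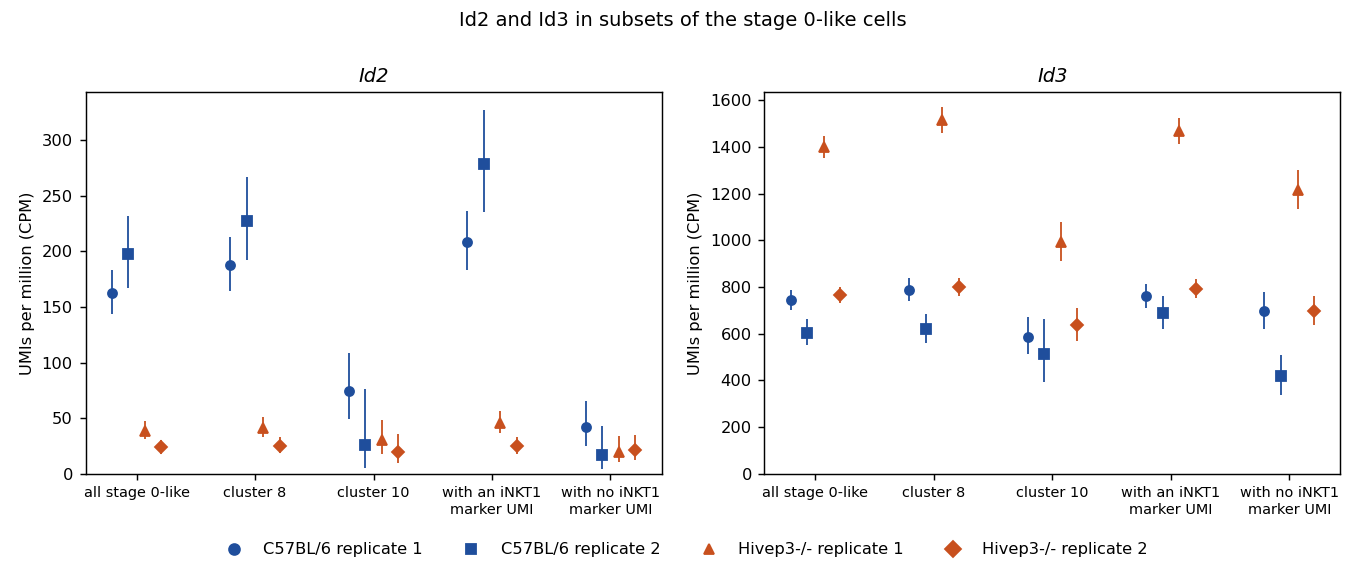
Id2 and Id3 levels (CPM, linear axes from 0) in all stage 0-like cells, in clusters 8 and 10, and in cells with and without a UMI of 17 iNKT1 marker genes, 1 marker per library, with bars for the 95% Poisson interval of the count. The genotypes do not overlap for Id2 in cluster 8 and in cells with iNKT1 marker UMIs, and they overlap in cluster 10 and in cells without them, where counts are low.

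Summed levels of markers of other stages also differed between the libraries of the genotypes in the same cells. In stage 0-like cells the summed level of the 17 iNKT1 markers was 556 and 517 CPM in C57BL/6 and 449.9 and 404 CPM in Hivep3-/- libraries. Of these markers Tbx21, Ccl5 and Gzma stood at 0 to 7.80 CPM in every library, so the sum came mostly from other genes of the list. A cell with a UMI of the list is therefore not shown to be an iNKT1 cell. The summed level of the 9 iNKT2 markers was 1329.8 and 1257 CPM against 904 and 775 CPM, with 2 of 8 tested called lower in Hivep3-/- (0.247% of all genes were called lower). Of the iNKT1 markers 10 were tested and 0 were called by edgeR's quasi-likelihood test (0.315% of all genes were). At an unadjusted p under 0.05 stood 6, against 8.63% of all genes. DESeq2 called 1 of the iNKT1 markers, a count given without its share over all genes. Set against the iNKT1-like cells of the same library, Id2 in stage 0-like cells was at 11.7% and 12.8% (C57BL/6) and 3.52% and 2.30% (Hivep3-/-) of its level there, and the iNKT1 markers at 4.98%, 4.26%, 3.05% and 2.59% of theirs. The part of these markers in the Id2 difference was not tested.

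In cycling-like cells the summed iNKT1 markers were higher in Hivep3-/- mice, at 641 and 809 CPM against 4381 and 2243 CPM, with 7 of 17 called higher (1.82% of all genes were). The summed iNKT2 markers were lower there, at 1751 and 1663 CPM against 996 and 924 CPM, with 5 of 9 called lower (1.78% of all genes were). Cluster 11 made up 29.4% ± 1.2 of C57BL/6 and 17.8% ± 2.0 of Hivep3-/- cycling-like cells, and cluster 14 made up 2.9% ± 1.3 and 12.5% ± 8.7 (SD, n = 2 each). Id2 was lower in Hivep3-/- libraries, without overlap, in each of the 4 cycling-like clusters. In cluster 12, for example, it stood at 519 and 605 CPM against 171 and 207 CPM. The part of the shifted markers in the class sum was not tested.

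The genes that act with these factors were taken from 3 further lists. Of the 5 TCR-signal factors upstream of Id3, all 5 were tested in stage 0-like cells and 0 were called by edgeR's quasi-likelihood test or DESeq2, with 3 at an unadjusted p under 0.05 (8.63% of all genes) and a median log2 difference of 1.06 against 0.02 over all genes. Egr2, an inducer of Id3, was at 172 and 140.4 CPM in C57BL/6 and 435 and 122 CPM in Hivep3-/- libraries. Nr4a1, an immediate early gene of TCR signalling, was at 152, 66.3, 472 and 139 CPM, Egr1 at 279.9, 205, 602 and 237 CPM and Nfatc1 at 210.1, 101, 551 and 189.8 CPM. All of these were highest in Hivep3-/- replicate 1, the library with the highest Id3. Egr3 was the only factor of the 5 without overlap in stage 0-like cells, at 3.06 and 5.20 CPM against 24.7 and 19.4 CPM (log2 difference 2.39, SE 0.44, edgeR quasi-likelihood adjusted p = 0.064). Libraries did not overlap for 41.8% of all genes there. The C57BL/6 levels of Egr3 rested on few UMIs, as 3 counts make 1.84 and 3.90 CPM in these sums. In cycling-like, iNKT2-like, iNKT17-like and iNKT1-like cells 0 of 5, 5, 4 and 5 tested factors were called by either tool, and 1, 0, 1 and 1 had an unadjusted p under 0.05 by edgeR's test, against 18.5%, 10.1%, 5.55% and 8.32% of all genes.

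Of 12 helix-loop-helix partners and cofactors, 6 were tested in stage 0-like cells and 0 were called by edgeR's quasi-likelihood test or DESeq2. At an unadjusted p under 0.05 stood 0, against 8.63% of all genes. In cycling-like cells 9 were tested and 1 was called (3.6% of all genes were): Lyl1, a partner of E proteins, at 0.356 and 0.491 CPM against 2.99 and 3.25 CPM (log2 difference 2.77, SE 0.51, edgeR quasi-likelihood adjusted p = 0.031). These Lyl1 levels rested on few UMIs, as 3 counts make 0.214, 0.491, 1.12 and 0.610 CPM in the same cycling-like sums. DESeq2 called 0 of the list there. In iNKT1-like cells 1 of 8 was called (0.684% of all genes were): Runx1, which encodes a Runt domain factor, fell from 37.6 and 33.5 CPM to 18.4 and 12.8 CPM (log2 difference -1.26, SE 0.18, edgeR quasi-likelihood adjusted p = 0.029). In iNKT2-like and iNKT17-like cells 0 of 8 and 0 of 6 were called by either tool. At an unadjusted p under 0.05 stood 2 and 0, against 10.1% and 5.55% of all genes.

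Of 14 E protein target genes of thymocytes, 11 were tested in stage 0-like cells and 1 was called, lower in Hivep3-/- (0.247% of all genes were called lower). This was Zbtb16, which encodes PLZF, the factor that directs innate-like differentiation, at 217 and 179 CPM against 79.2 and 74.9 CPM (log2 difference -1.50, SE 0.16, edgeR quasi-likelihood adjusted p = 0.0034). In cycling-like cells 2 of 11 were called lower (1.78% of all genes were): Cd4, from 54.8 and 56.2 CPM to 20.6 and 13.6 CPM (log2 difference -1.89, edgeR quasi-likelihood adjusted p = 0.0052), and Ccr7, a chemokine receptor, from 122 and 107 CPM to 70.4 and 70.6 CPM (-0.86, adjusted p = 0.022). In iNKT1-like cells 1 of 9 was called (0.684% of all genes were), Cd4 again, from 27.2 and 25.6 CPM to 5.40 and 4.16 CPM (log2 difference -2.53, edgeR quasi-likelihood adjusted p = 0.002). In iNKT2-like and iNKT17-like cells 0 of 10 and 0 of 7 were called by edgeR's test (0.319% and 0.092% of all genes were). At an unadjusted p under 0.05 stood 2 and 3, against 10.1% and 5.55% of all genes. DESeq2 called 2 and 0, counts given without their share over all genes. The median log2 difference of the list was -0.18 in stage 0-like and 0.08 in cycling-like cells, against 0.02 and 0.03 over all genes. Zbtb16 and Ccr7 are also in the iNKT2 marker list, and Egr2 in the stage 0 marker list.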

How the data were processed

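Thymic iNKT cells of 2 C57BL/6 and 2 Hivep3-/- mice were sequenced with 10x Genomics 5′ chemistry, 1 library per mouse. The authors deposited raw UMI counts per gene and cell barcode, made with Cell Ranger 3.1.0 on mm10, per the labels; the sources used here do not state strand handling. The study's cell filter was applied (at least 500 and under 4100 genes, at least 1000 UMIs, under 6% mitochondrial UMIs), which kept 19647 of 22279 barcodes and 25518692 to 45022744 UMIs per library. Cells were clustered (2000 variable genes, 30 components, mutual nearest neighbour correction between libraries, Louvain at resolution 0.8) without the 6 members, 26 genes of the study in all and the TCR segment genes, and clusters were named from marker lists. The rebuilt classes may differ from the study's. Scrublet (in scanpy 1.11.5) marked 0 to 5 cells per library, so it had not worked and no doublets were removed. The members, gene lists and markers were chosen with earlier results of these data known.

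Levels are UMIs per 1000000 UMIs of a class sum (CPM, computed here). Sums were tested with edgeR 4.0.16 (quasi-likelihood, TMM, filterByExpr, Benjamini-Hochberg over all genes tested). DESeq2 1.42.0 was an alternative, and its counts are given without a share over all genes. The mice are separate animals, and cells were never used as replicates. Genes named in the text were the 6 members, the 5 genes with the highest and the 3 with the lowest correlation with Id2 and Id3 (mean of at least 20 CPM), and list members called or named by role. On counts simulated for the 8891 genes of the stage 0-like comparison, the test recovered 50.5% of the genes changed by 1 log2 unit and 93.8% of those changed by 2. Other settings tried were size factors, filters, clustering choices, a Cd24a gate and leaving out each library. Positions are from GENCODE on GRCm38, and upstream sequences from RefSeq, which has an entry for 4 of the 6 members.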

Additional observations from a re-analysis of the deposited data

Results flagged for a closer look

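For 2 members the genotype difference was not the same in stage 0-like as in iNKT1-like cells (interaction in edgeR's quasi-likelihood test, blocked on library). Id2 had an interaction of -2.12 on the log2 scale: it was at 179.9 CPM ± 24.9 against 31.2 CPM ± 10.49 in stage 0-like cells and at 1466 CPM ± 112 against 1066 CPM ± 45.4 in iNKT1-like cells (C57BL/6 against Hivep3-/-, SD, n = 2 each). It was lower in both Hivep3-/- libraries in either class. Tcf3 had an interaction of 0.61: it was at 103 CPM ± 31.4 against 167 CPM ± 22.2 in stage 0-like cells and at 54.7 CPM ± 4.95 against 55.2 CPM ± 14.9 in iNKT1-like cells. The Tcf3 call was lost without C57BL/6 replicate 2 (0.45), without Hivep3-/- replicate 2 (0.49), with the replicate block (0.64), with no correction of library effects (0.60) and in stage 0-like cells with no iNKT1 marker UMI (0.62). The Id2 value was -0.29 in stage 0-like cells with no iNKT1 marker UMI.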

How the results depend on the processing

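The Id2 difference in stage 0-like cells kept its direction in every alternative that could be fitted and lost its call in 2, both added after seeing the data: cluster 10 alone (-1.36) and cells with no iNKT1 marker UMI (-0.75; interaction -0.29). Under the Cd24a gate it could not be fitted and its levels ran the other way (0 and 0 CPM in C57BL/6, 158 and 11.9 CPM in Hivep3-/-). Leaving out each library gave -2.99 to -2.39, and -1.34 to -0.83 in cycling-like cells. The cycling-like call was lost at resolution 1.2 (-0.92), without the correction of library effects (-0.60) and when members entered the clustering (-0.96). Without the low-count filter Id3 passed the threshold in stage 0-like (0.56), cycling-like (0.94), iNKT2-like (0.71), iNKT1-like (0.88) and all cells (0.47), and Id2 in iNKT1-like (-0.52) and all cells (-0.46). The share of all genes called in that setting is not given here. With DESeq2 Id3 passed in cycling-like (0.94) and Id2 in iNKT1-like cells (-0.53). The Tcf3 interaction was lost with no correction (0.60) and in cells with no iNKT1 marker UMI (0.62). The cause of these changes was not tested.

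The replicate numbers mark different mice, and no source gives same-numbered mice a shared batch. Same-numbered samples correlated at 0.10 to 0.20 in their deviations within classes and at 0.00090 over all cells. With the replicate block the Id3 difference passed in cycling-like (0.93), iNKT2-like (0.68) and iNKT1-like cells (0.88), the Tcf12 difference passed in cycling-like cells (0.72), the Tcf3 interaction (0.64) was lost, and Id2 kept its calls (stage 0-like -2.64, cycling-like -1.08).

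Leaving out each library gave 0.58 to 1.24 for Id3 in cycling-like cells, -0.68 to -0.11 for the Id3 interaction, 0.45 to 0.87 for the Tcf3 interaction and -0.61 to 1.28 for the Tcf4 interaction. Uncalled differences that changed sign in this way were Tcf12 in stage 0-like cells (-0.10 to 0.20), Id2, Id3 and Tcf12 in iNKT17-like cells (-0.16 to 0.072, -0.41 to 0.54 and -0.084 to 0.15), Tcf3, Tcf12 and Tcf4 in iNKT1-like (-0.30 to 0.12, -0.18 to 0.13 and -0.043 to 0.75), Id1 and Tcf3 over all cells (-1.81 to 0.38 and -0.018 to 0.31) and the Id3 share in iNKT17-like cells (-2.96 to 5.92 points). Other reversals of uncalled differences were Tcf3 under the Cd24a gate (-0.64), Tcf12 in stage 0-like cells with the stricter cell filter (-0.044), at resolution 1.2 (-0.017) and in cluster 8 (-0.10), Tcf12 in iNKT17-like cells with no correction (-0.0060), Tcf3 in iNKT1-like cells with no correction (0.011) and in cluster 2 (0.059), Tcf12 there in clusters 2 and 3 (0.059 and 0.17), and Tcf4 there at resolution 0.4 (-0.098).

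The Id3 share difference in stage 0-like cells was 14.001 points at resolution 0.4, 13.4 with no correction, 14.1 with members kept and -9.82 (reversed) under the Cd24a gate; in cycling-like cells it was 29.0 at resolution 1.2, 18.0 with no correction and 29.3 with members kept. Without thinning, the difference in the share of cells with Id2 was -11.0 points (stage 0-like), -15.0 (cycling-like), 0.53 (iNKT2-like, reversed), -0.56 (iNKT1-like) and -6.27 (all cells), and with Id3 6.31 (cycling-like), 4.94 (iNKT17-like, reversed) and 9.08 (iNKT1-like). Counts of genes called ranged from 0 to 232 for stage 0-like (28 as reported), 115 to 1132 for cycling-like (368), 1 to 405 for iNKT2-like (31), 2 to 142 for iNKT17-like (7), 15 to 467 for iNKT1-like (73) and 14 to 965 for all cells (94) and 54 to 499 for the interaction (432). On simulated counts 50.5% of genes changed by 1 log2 unit were recovered in the stage 0-like and 67% in the iNKT1-like comparison, so differences of this size can be missed.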
